A study of Mus musculus with 7 samples.

Results

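Olfactory receptor genes were followed on arrays of mouse germinal centre B cells. They are the 186 genes whose array symbol starts with Olfr, each with a probe of that gene alone, and whose log2 intensity averaged at least 3.48 over the 7 arrays. The genes were thus selected on their measured level, and that level is given below as a description with no test. The limit is the 25th percentile of the means of all 21515 measured genes. The family has 1081 measured genes in all, of which 895 lay under the limit. The series compared splenic B cells sorted for B220, CD95 and GL7 from RRas2-deficient mice (3 arrays) with the same cells from wild-type (WT) mice (4 arrays), 7 days after all mice had received sheep red blood cells. The labels give spleen, germinal centre B cells, the genotype and immunization for each sample. The allele, the strain, the age of the mice and whether the gene was missing in B cells alone are not given in the sources used here, and the description of the deficient samples writes Rras in place of RRas2. Each sample was read on 1 whole-transcript Affymetrix array, and the authors deposited log2 intensities. An array has no read depth, and precision is limited by how few arrays there are. The labels call the samples biological replicates without naming animals, so a p-value here measures only how these samples spread. In RNA of many cells, fewer cells of a type and less RNA per cell cannot be told apart.

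Olfactory receptors are G protein-coupled receptors that bind odorants at the cilia of olfactory sensory neurons. Each mature neuron is known to express a single receptor gene from a single allele, while the others are held in closed chromatin. The genes lie in tandem clusters on many chromosomes, and the class I receptors of the mouse form a single cluster on the chromosome that also carries Rras2. Because most cells outside the nose do not use these genes, their probes give an idea of how an array reads a gene that is off.

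Marker genes were read to check the label of the sorted cells, though signals of different probes are not amounts of RNA. The 11 measured germinal centre B cell markers of 14 listed had mean log2 intensities of 7.77 to 11.6, and the 9 measured markers of olfactory sensory neurons of 11 listed had 3.32 to 5.36. Of the markers of other cells, only Jchain (9.42) and Xbp1 (8.16) of plasma cells and Pecam1 (8.23) of endothelium read within the range of the first list. All 3 were named after their values were seen. The other plasma cell markers, Tnfrsf17, Sdc1, Prdm1 and Irf4, had 3.86 to 6.80. The other markers of stroma and endothelium had 4.44 to 5.30, and those of monocytes, macrophages and dendritic cells 3.39 to 7.28. The 7 measured T cell markers had 3.89 to 4.82. Rras2 read 6.93, 6.68 and 7.12 in the RRas2-deficient replicates and 7.13, 7.41, 8.66 and 8.39 in the WT replicates. Its genotypes did not overlap, but the highest deficient value (7.12) almost met the lowest WT value (7.13). Its difference of -0.99 ± 0.39 (SE) on the log2 scale had an unadjusted limma p of 0.0415. It was not called among all genes (limma adjusted p = 1.00). The arrays differed in the spread of all their values, a property that cuts across genotype. The interquartile range was 2.37 to 2.49 on 3 narrower arrays (RRas2-deficient replicate 2 and WT replicates 1 and 2) and 2.69 to 2.91 on the other 4, called wider. The mean of the germinal centre markers lay between 9.04 and 9.20 on narrower arrays, and between 9.93 and 10.3 on wider arrays. Rras2 in WT also split by array set, with 7.13 and 7.41 on narrower arrays and 8.66 and 8.39 on wider arrays. In deficient samples it read 6.68 on the narrower array and 6.93 and 7.12 on the wider ones.

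Most olfactory receptor genes read low in these cells. Of the 1081 genes 186 (17.2%) reached the limit, against 74.96% of all genes, and the median over the family of the mean log2 intensity was 2.81, against 4.53 for all genes. These shares describe the choice of the genes and are not tested. The limit is a step in a continuous range. The 5 genes just inside it were Olfr739 (mean log2 intensity 3.49), Olfr1449 (3.49), Olfr569 (3.49), Olfr698 (3.50) and Olfr944 (3.51). The 5 just outside were Olfr541 (3.48), Olfr469 (3.47), Olfr113 (3.47), Olfr686 (3.47) and Olfr720 (3.46). Olfr541 read 3.35, 3.79 and 3.40 in the RRas2-deficient replicates and 4.04, 3.06, 3.35 and 3.35 in WT replicates 1 to 4, so its place just under the limit hides a range wider than its distance from it. Of the 186 genes 118 were at or over the limit on all 7 arrays, and 108 of the 895 others were so on at least 1 array. Across the single arrays, 175 to 210 of the 1081 genes reached the limit in the RRas2-deficient samples and 155 to 242 in the WT samples.

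**Figure D1:**
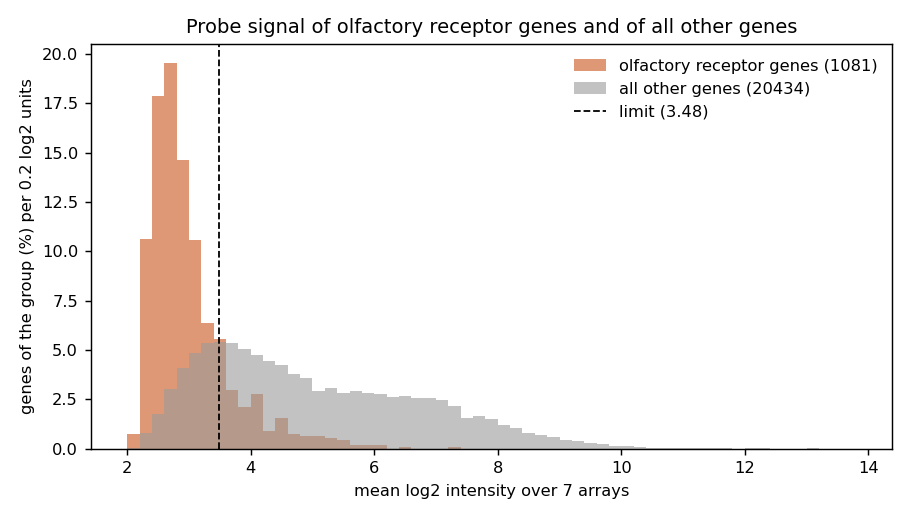
Share of genes (vertical axis, percent of each group per 0.2 log2 units) by mean log2 intensity over the 7 arrays (horizontal axis), for the 1081 olfactory receptor genes and for all other genes. The olfactory receptor genes pile up left of the dashed limit at 3.48, with a thin tail that ends at 7.21.

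The tail above the limit was short. Of the 186 genes 88 had a mean under 4 on the log2 scale, 26 had a mean of 5 or more and 4 a mean of 6 or more. Only 47 lay above the median of all genes. By the RefSeq table of mouse genes 183 were protein coding, and the other 3 were Olfr1077-ps1, Olfr75-ps1 and Olfr1174. Intensities of different probes are not amounts of RNA and are not scaled by length, so the order that follows is one of probe signal.

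Olfr1360 (gene ID 258536, chromosome 13) had the highest signal, at the 87.4th percentile of all genes. It read 7.00, 7.26 and 7.50 in the RRas2-deficient replicates and 7.13, 7.26, 7.20 and 7.10 in the WT replicates, so the genotypes overlapped fully and the arrays differed little. Its neighbours in gene order are also olfactory receptor genes, Olfr1361 with a mean of 4.78 and Olfr1359 with 3.82. The pseudogene Olfr1077-ps1 (gene ID 625853, chromosome 2) came next with a mean of 6.55. It read 6.04, 7.14 and 6.03 in the RRas2-deficient replicates and 7.32, 6.86, 6.16 and 6.32 in WT. Its 3 narrower arrays were all above its 4 wider ones, in both genotypes.

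Olfr1411 (gene ID 258483, chromosome 1, mean 6.04) read 6.12, 6.22 and 6.01 in the RRas2-deficient replicates and 6.77, 5.99, 5.44 and 5.71 in WT. Olfr1373 (gene ID 211472, chromosome 11) read 5.94, 5.94 and 5.86 in the RRas2-deficient replicates and 6.80, 5.93, 5.48 and 6.06 in WT. In both genes WT replicate 1 was the highest array and WT replicate 3 the lowest, and the deficient arrays lay between them. Of the remaining genes among the 12 brightest, Olfr93 (chromosome 17, mean 5.97), Olfr549 (chromosome 7, 5.91) and Olfr1337 (chromosome 4, 5.78) were also highest on WT replicate 1. Olfr549, a receptor of the chromosome 7 cluster, lies next to Trim21, an antibody-binding ubiquitin ligase gene whose own mean was 6.83. Olfr318 (mean 5.63) and Olfr317 (5.49) are neighbours on chromosome 11, yet they did not run together. Olfr318 read 5.68, 5.81 and 5.56 in the RRas2-deficient replicates and 5.60, 5.48, 5.58 and 5.72 in WT, while Olfr317 read 5.56, 5.63 and 5.56 in the deficient samples and 5.81, 5.91, 4.91 and 5.04 in WT. Olfr1382 (5.51), Olfr279 (5.50) and Olfr884 (5.49) completed the 12. The measured direct neighbours of the 12 that are olfactory receptor genes had means from 2.38 to 5.63, so a bright probe often sat beside one that read under the limit.

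Olfactory receptor genes are near copies of each other, and a probe can read a close relative. The probe sequences were not used here, and 5 probes that the annotation gives to several genes including an olfactory receptor were left out. No 2 of the 186 genes had the same values on all arrays, while 76 repeated a value between arrays, with values compared to 4 decimals.

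The sequence at the annotated start of these genes was also read. RefSeq promoters of GRCm38.p6, taken around each gene's annotated start, were found for 157 of the 186 genes. Whether transcription begins at that start was not tested, so the motif shares below describe sequence around the annotated start only. These promoters are shown for 4 genes, each chosen among the genes with a promoter in the table. They are the brightest gene, the gene of lowest p among those lower in RRas2-deficient cells, the gene with the largest positive difference and the gene nearest to Rras2. Capitals mark matches on either strand to TAATTA or TAATGA, cores bound by homeodomain factors such as LHX2, to TATAAA, the TATA box, or to CCCNNGGG, the core bound by early B cell factor (EBF). Olfr1360 lies at chr13:21674931-21675230, Olfr605 at chr7:103443101-103443400, Olfr917 at chr9:38665793-38666092 and Olfr519 at chr7:108894356-108894655, all on the minus strand.
Olfr1360: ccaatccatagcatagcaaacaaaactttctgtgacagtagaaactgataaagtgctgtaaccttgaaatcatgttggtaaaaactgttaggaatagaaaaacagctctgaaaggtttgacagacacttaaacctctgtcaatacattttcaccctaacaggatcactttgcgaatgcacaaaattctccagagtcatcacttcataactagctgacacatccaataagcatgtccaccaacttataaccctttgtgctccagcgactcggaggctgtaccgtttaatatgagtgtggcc
Olfr605: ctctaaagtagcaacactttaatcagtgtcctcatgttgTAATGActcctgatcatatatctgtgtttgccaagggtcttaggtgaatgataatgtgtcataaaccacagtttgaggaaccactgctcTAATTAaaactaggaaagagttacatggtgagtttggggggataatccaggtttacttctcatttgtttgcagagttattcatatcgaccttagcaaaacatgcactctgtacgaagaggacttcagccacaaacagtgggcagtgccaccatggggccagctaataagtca
Olfr917: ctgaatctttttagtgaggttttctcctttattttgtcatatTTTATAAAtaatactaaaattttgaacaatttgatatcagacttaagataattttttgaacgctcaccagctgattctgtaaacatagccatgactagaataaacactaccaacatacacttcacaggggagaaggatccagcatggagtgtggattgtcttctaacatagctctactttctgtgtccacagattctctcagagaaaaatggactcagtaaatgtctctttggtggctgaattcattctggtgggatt
Olfr519: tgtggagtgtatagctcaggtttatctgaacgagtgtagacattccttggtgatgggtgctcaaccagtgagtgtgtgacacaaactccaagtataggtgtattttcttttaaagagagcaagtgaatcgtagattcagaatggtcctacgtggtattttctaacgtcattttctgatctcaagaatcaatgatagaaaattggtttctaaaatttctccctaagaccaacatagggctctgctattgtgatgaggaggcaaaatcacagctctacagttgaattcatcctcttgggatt
The Olfr605 promoter holds 1 TAATGA and 1 TAATTA, the Olfr917 promoter holds TATAAA on both strands in 2 overlapping matches, and the other 2 hold none of the 4 motifs.

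TAATTA was in 17.2% of the 157 promoters of genes above the limit, in 18.6% of 747 promoters of olfactory receptor genes under it and in 4.86% of the 26121 promoters of all other genes. TAATGA was in 19.7%, 30.7% and 9.34% of these promoters, and TATAAA in 33.1%, 42.8% and 13.2%. The EBF core was in 11 promoters of genes above the limit (7.01%), in 18 of those under it (2.41%) and in 13.8% of the others. EBF is known both as a factor of olfactory neurons and as a factor that sets B cell identity, and its gene Ebf1 read 9.51 to 9.71 in the RRas2-deficient samples and 9.47 to 9.77 in WT. The median share of G and C was 38.3% above the limit, 34.3% under it and 53.0% in the others, so the motif shares differ along with base composition. A match is a string of letters and not a bound site, and a link between a motif and probe signal was not tested.

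The 186 genes followed the arrays more than the genotypes. Their median log2 intensity was 3.98, 4.14 and 3.96 in RRas2-deficient replicates 1 to 3 and 4.25, 4.15, 3.87 and 3.93 in WT replicates 1 to 4. The 3 narrower arrays held the 3 highest medians, and the deficient values lay inside the WT range. The array sets were defined by the spread of all values on these same arrays. A narrower spread tends to go with higher readings of dim genes, so the direction in this mostly dim list was partly set by that choice. The narrower arrays were also the 3 highest for the 895 genes under the limit, with medians between 2.74 and 2.78, and the wider arrays had 2.63 to 2.72. WT replicate 1 stood out. It was the highest array for 87 of the 186 genes (46.8%), against 13.3% of all tested genes, and the lowest for 4. At matched brightness the contrast was smaller among dim genes. It was 44.3% of the receptors against 26.2% of all tested genes from 3.48 to 4, and 43.1% against 21.9% from 4 to 5. Among brighter genes it was larger, with 14 of 22 receptors (63.6%) against 10.65% of all tested genes from 5 to 6. From 6 upward it was 3 of 4 receptors against 2.01%. WT replicate 3 was the lowest array for 57 of the 186 genes (30.6%), against 19.7% of all tested genes.

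**Figure D2:**
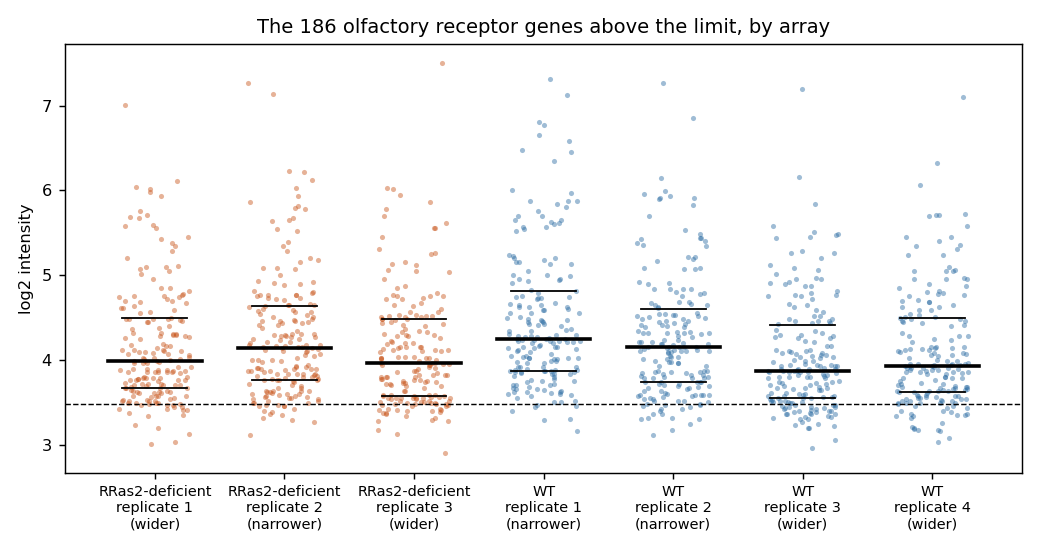
Log2 intensity (vertical axis) of the 186 olfactory receptor genes on each of the 7 arrays, with 1 point per gene, a thick bar at the median, thin bars at the quartiles and a dashed line at the limit of 3.48. The medians are highest on WT replicate 1 (4.25), WT replicate 2 (4.15) and RRas2-deficient replicate 2 (4.14), the 3 narrower arrays.

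On the narrower arrays 157 of the 186 genes had a higher mean than on the wider ones (84.4%), against 52.9% of all tested genes. The median difference, narrower minus wider, was 0.20 on the log2 scale, against 0.02 for all tested genes. It was 0.10 between the deficient arrays alone and 0.28 between the WT arrays alone, and 115 genes were higher on the narrower arrays in both genotypes. For 44 genes every narrower array was above every wider one, and for 0 genes the reverse held. Over all tested genes, which are mostly brighter, 13.6% had every narrower array higher and 26.9% every wider array higher. Among dim genes of matched brightness the shares lay nearer. From 3.48 to 4 every narrower array was higher in 19.3% of the receptors, against 17.4% of all tested genes there. From 4 to 5 this held for 18 of 72 receptors against 21.6% of all tested genes. Among brighter genes the shares lay further apart. From 5 to 6 every narrower array was higher in 8 of 22 receptors (36.4%) against 14.7% of all tested genes, and from 6 upward in 1 of 4 against 5.35%. After a further quantile normalization the median difference was 0.09 and 120 genes were higher on the narrower arrays. After centring each array on its median it was 0.07 with 119 genes higher, while the median of all tested genes moved to -0.11. Without WT replicate 1 it was 0.14, with 142 genes higher.

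The difference between the array sets was next read by brightness. Among genes with a mean from 3.48 to 4 the median difference, narrower minus wider, was 0.16 for 88 olfactory receptor genes and 0.13 for all tested genes. From 4 to 5 it was 0.20 for 72 olfactory receptor genes and 0.15 for all. From 5 to 6 it was 0.38 for 22 olfactory receptor genes and 0.00 for all, and 19 of these 22 (86.4%) were higher on the narrower arrays against 49.97% of all tested genes of that brightness. From 4 to 5 the share was 88.9% against 80.7% of all tested genes, and from 3.48 to 4 it was lower in the receptors, 79.5% against 85.9%. The 4 genes from 6 upward, Olfr1360, Olfr1077-ps1, Olfr1411 and Olfr1373, differed by 0.02, 0.97, 0.51 and 0.39, where all tested genes had a median of -0.42. The 26 genes from 5 upward had a median of 0.40, of 0.51 after quantile normalization, of 0.27 after centring and of 0.25 without WT replicate 1. Genes are not independent replicates, and these medians are a description of 7 arrays.

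**Figure D3:**
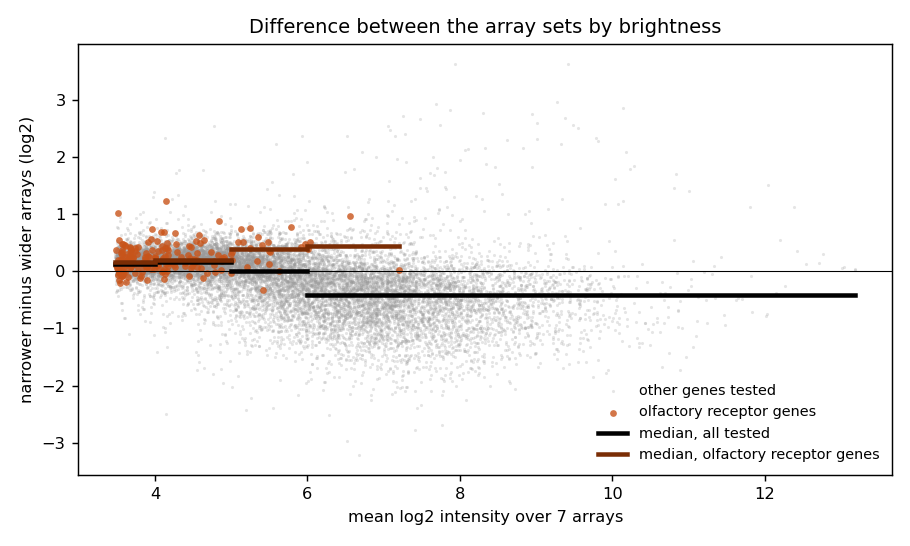
Mean log2 intensity over 7 arrays (horizontal axis) against the difference between the 3 narrower and the 4 wider arrays (vertical axis, log2), for the olfactory receptor genes and the other genes tested, with bars at the medians of the brightness classes. From 5 to 6 the median is 0.38 for olfactory receptor genes and 0.00 for all tested genes.

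Some genes varied more between arrays than most. The 5 with the largest SD over the 7 arrays were Olfr988, Olfr1269, Olfr1046, Olfr584 and Olfr1329. Olfr988 (chromosome 2) read 4.76, 3.77 and 4.32 in the RRas2-deficient replicates and 6.58, 4.15, 3.90 and 4.24 in WT, so a single WT array carried its SD of 0.96. Olfr1046 (chromosome 2) read 3.57, 5.08 and 3.80 in the deficient replicates and 5.23, 4.21, 3.47 and 3.63 in WT, and its 3 narrower arrays were the 3 highest. Olfr1329 (chromosome 4) did the same, with 3.03, 4.27 and 3.29 in the deficient replicates and 4.19, 3.81, 2.96 and 3.03 in WT. Olfr1269 (chromosome 2) ran the other way in the deficient samples, with 6.01, 4.02 and 5.15 against 6.45, 5.22, 5.51 and 5.58 in WT. Olfr584 (chromosome 7) read 5.67, 5.87 and 4.51 in the deficient replicates and 6.01, 5.17, 4.58 and 4.95 in WT. The SD within genotype had a median of 0.23 over the 186 genes and 0.21 over all tested genes. At matched brightness its median was larger in the receptors, 0.21 against 0.15 from 3.48 to 4 and 0.22 against 0.18 from 4 to 5. It was 0.35 against 0.23 from 5 to 6 and 0.44 against 0.34 from 6 upward. The mean of 7 measured T cell markers was 4.71 on WT replicate 1 and 3.86 to 4.25 on the other 6 arrays. Its part in the high readings on that array was not tested.

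No olfactory receptor gene passed the test of genotype. Of the 186 genes 0 passed a limma adjusted p of 0.05 over the 16128 genes tested, of which 0.0124% passed, and each of the 186 had an adjusted p of 1.00. A plain equal-variance test per gene with the same adjustment called 0 as well. An unadjusted limma p under 0.05 was found for 5 genes (2.69%), against 0.818% of all tested genes. All 5 were lower in RRas2-deficient cells, against 0.298% of all tested genes that were lower at that p and 0.521% that were higher. The difference, RRas2-deficient minus WT, had a median of -0.03 over the 186 genes and 0.00 over all tested genes. There were 84 genes with a higher and 102 with a lower mean, and the range was -0.64 to 0.52. The median was negative after quantile normalization (-0.05) and after centring (-0.05), where 71 genes were higher and 115 lower. It turned to 0.05 without WT replicate 1, to 0.01 without RRas2-deficient replicate 3 and to 0.01 with a block for array set. The median size of a difference was 0.11, against a median SD within genotype of 0.23.

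The 5 genes with an unadjusted p under 0.05 included the largest difference among the 186, that of Olfr617. Olfr617 (gene ID 258838, chromosome 7) read 3.78, 3.45 and 3.36 in the RRas2-deficient replicates and 4.37, 4.01, 3.83 and 4.45 in WT. The groups came close without overlapping, and the difference was -0.64 ± 0.19 (limma SE, unadjusted p = 0.0125). Olfr605 (gene ID 258156, chromosome 7) read 4.01, 4.17 and 4.03 in the deficient replicates and 4.27, 4.49, 4.30 and 4.45 in WT. Its genotypes did not overlap and it differed by -0.31 ± 0.09 (limma SE, unadjusted p = 0.0148). Olfr370 (gene ID 258267, chromosome 8) read 4.85, 4.56 and 4.72 in the deficient replicates and 5.57, 5.38, 4.96 and 4.97 in WT, again without overlap, and differed by -0.51 ± 0.18 (limma SE, unadjusted p = 0.0263). Olfr492 (-0.41 ± 0.16) and Olfr536 (-0.30 ± 0.12), both on chromosome 7, followed, and in both a deficient array lay above the lowest WT array or within rounding of it. When array set entered the fit as a block, 15 of the 186 genes (8.06%) had an unadjusted p under 0.05, against 10.1% of all tested genes. The lowest adjusted p among the 186 was then 0.337.

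The other genes of lowest p had larger p and are given as values. Olfr1382 (-0.32 ± 0.14, log2 difference ± limma SE), Olfr1362 (-0.26 ± 0.11) and Olfr455 (-0.28 ± 0.13) completed the 8 with lower means. Olfr1382 read 5.29, 5.39 and 5.30 in the RRas2-deficient replicates and 5.88, 5.83, 5.44 and 5.44 in WT, and Olfr455 read 4.71, 4.73 and 4.57 against 5.16, 5.09, 4.77 and 4.77 in WT. Neither pair of groups overlapped. Among those with higher means were Olfr1390 (0.19 ± 0.10), Olfr700 (0.52 ± 0.27), Olfr593 (0.21 ± 0.11), Olfr95 (0.27 ± 0.15), Olfr819 (0.18 ± 0.11), Olfr917 (0.33 ± 0.21), Olfr884 (0.21 ± 0.14) and Olfr1359 (0.25 ± 0.17). Olfr700 read 4.30, 4.65 and 4.42 in the deficient replicates and 4.48, 4.19, 3.73 and 3.36 in WT, so the groups overlapped through WT replicate 1. Olfr593 read 3.92, 3.62 and 3.53 in the deficient replicates and 3.50, 3.50, 3.47 and 3.48 in WT, so the WT arrays lay at the limit. In 6 of the 186 genes (3.23%) the genotypes did not overlap, against 1.09% of all tested genes. Of the 6, 1 was higher in deficient cells (0.719% of all tested genes) and 5 were lower (0.366%). These 6 are Olfr593, Olfr617, Olfr605, Olfr370, Olfr1382 and Olfr455.

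**Figure D4:**
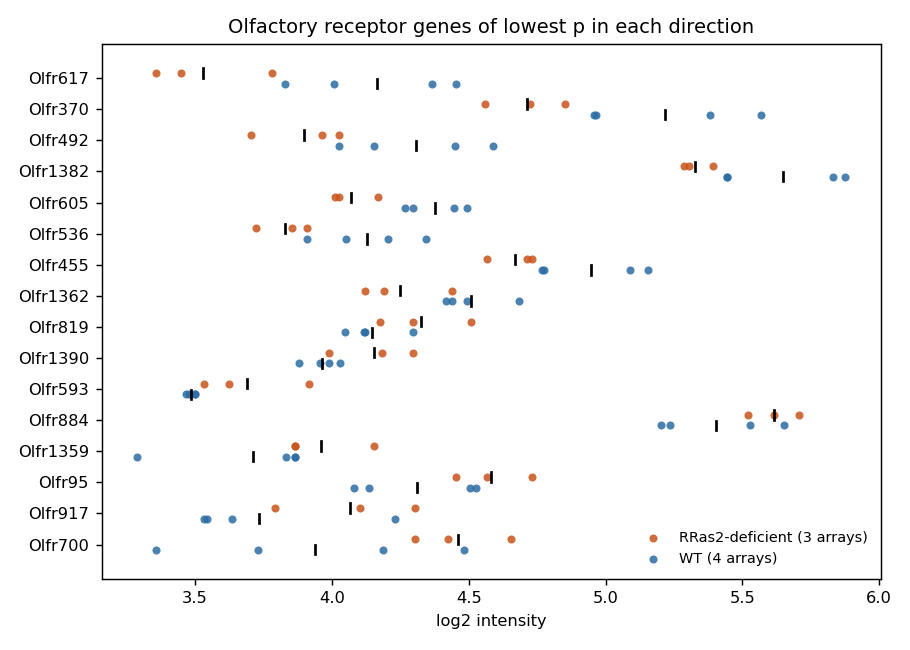
Log2 intensity (horizontal axis) of the 8 olfactory receptor genes of lowest unadjusted p in each direction, with 1 point per array, RRas2-deficient (3 arrays) above WT (4 arrays) in each row, and a tick at each mean. The differences run from -0.64 in Olfr617 to 0.52 in Olfr700, and most pairs of groups overlap or nearly touch.

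The chromosome of Rras2 held more of these genes than any other. Chromosome 7 carried 232 measured olfactory receptor genes, of which 51 (22.0%) were above the limit, while chromosome 2 carried 286, of which 21 (7.34%) were. Chromosome 11 held 23 of 77, chromosome 9 held 17 of 129 and chromosome 17 held 12 of 49. The differences of the 51 genes on chromosome 7 had a median of -0.06, with 22 higher and 29 lower, and those of the other 135 genes a median of -0.01, with 62 higher and 73 lower. The gap between these medians was -0.05. It was -0.01 without RRas2-deficient replicate 2 or without WT replicate 3, 0.00 with no filter on dim genes, and turned to 0.06 with the limit at the median of all genes. Over the 4 WT arrays the gap between the median levels of the same genes had an SD of 0.0134. No test was made of the gap. Of the 5 genes with an unadjusted p under 0.05, 4 were on chromosome 7 (7.84% of 51) and 1 elsewhere (0.741% of 135). The other tested genes showed 26 of 1295 (2.01%) on chromosome 7 and 0.690% elsewhere. Nearer to Rras2 the shares of other genes were higher. Over 100 and up to 300 measured genes from it, 3 of 40 receptors (7.5%) had such a p, against 13 of 217 other genes (5.99%). Within 100 measured genes it was 1 of 7 receptors against 3 of 120 other genes (2.5%). The genotypes did not overlap in 3 of the 51 genes (5.88%) and in 3 of the 135 (2.22%), against 2.32% of the other genes tested on chromosome 7 and 0.949% of those elsewhere. Over 100 and up to 300 measured genes from Rras2 they did not overlap in 7.5% of the 40 receptors and 6.45% of the 217 other genes. These counts are small, the genes sit in clusters of near copies, and the shares are given without a test.

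On chromosome 7 the 51 genes formed blocks in gene order. Counted over measured genes, 40 lay 46 to 279 genes before Rras2, 7 lay 284 to 297 genes after it and 4 lay over 1000 genes away. The 7 genes within 100 measured genes of Rras2 had a median difference of -0.09, with 2 higher and 5 lower, and the 40 genes over 100 and up to 300 away a median of -0.02, with 19 higher and 21 lower. The other tested genes within 100 had a median of -0.01, with 54 higher and 66 lower. Those over 100 and up to 300 away had 0.02, with 119 higher and 98 lower. The nearest 10 were Olfr519 (46 genes away), Olfr518 (47), Olfr514 (50), Olfr512 (52), Olfr492 (66), Olfr484 (73), Olfr713 (100), Olfr700 (113), Olfr698 (115) and Olfr692 (137). Olfr519, the nearest, read 3.71, 4.24 and 3.96 in the RRas2-deficient replicates and 5.01, 4.65, 4.51 and 3.72 in WT. Its groups overlapped and its difference of -0.50 ± 0.31 (limma SE, unadjusted p = 0.145) rested on 3 high WT arrays. Olfr518, a direct neighbour of Olfr519, differed by -0.09 ± 0.16, Olfr514 by 0.01 ± 0.09 and Olfr512 by -0.09 ± 0.10. Olfr484 (-0.19 ± 0.20), Olfr713 (0.11 ± 0.15), Olfr698 (0.00 ± 0.21) and Olfr692 (0.07 ± 0.11) were within their errors or close to them. Of the 6 nearest genes 5 had a negative difference, and Olfr514 had 0.01. The naming rule set 10 genes and not 6, and past these 6 Olfr713, Olfr700 (0.52) and Olfr692 had positive differences.

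**Figure D5:**
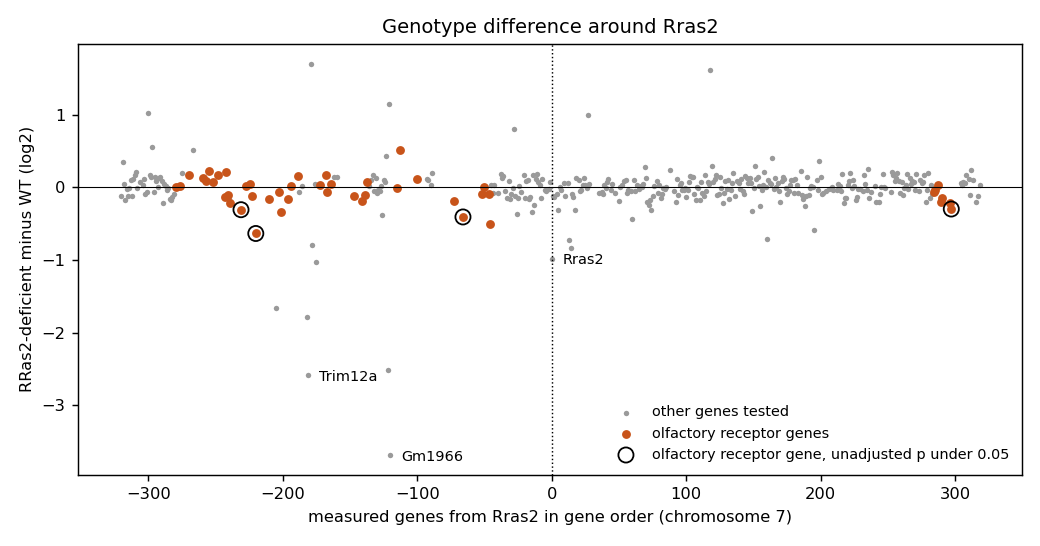
Difference RRas2-deficient minus WT (vertical axis, log2) by place in gene order along chromosome 7, counted in measured genes from Rras2 (horizontal axis), for olfactory receptor genes and other tested genes, without the 4 receptor genes over 1000 genes away. Rings mark the olfactory receptor genes with an unadjusted p under 0.05, and the olfactory receptor genes stay between -0.64 and 0.52 while Gm1966 and Trim12a reach -3.69 and -2.59.

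The 2 genes that passed over all genes tested lie among these receptors. Gm1966 sat 120 measured genes from Rras2 and differed by -3.69 ± 0.19 (limma adjusted p = 0.00567), and Trim12a, a tripartite motif gene, sat 181 away and differed by -2.59 ± 0.19 (limma adjusted p = 0.0310). The olfactory receptor genes above the limit on either side of Trim12a were Olfr646 (189 genes from Rras2) and Olfr652 (172), which differed by 0.16 ± 0.20 and 0.03 ± 0.10. On either side of Gm1966 were Olfr692 (137 away) and Olfr698 (115 away), given above. These 4 receptors did not pass, and Olfr646 and Olfr652 were named after their values were seen. Olfr617 and Olfr605, of lowest p, sat 220 and 231 genes away.

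The genes that olfactory neurons use beside the receptors were also followed. Of 36 listed, 34 were measured and 28 tested, and 0 of the 28 passed in limma, 0 at an unadjusted p under 0.05, with 15 higher and 13 lower. Omp, the olfactory marker protein gene, averaged 4.92 in RRas2-deficient samples and 5.04 in WT. Gnal, the G protein alpha subunit of odorant signalling, averaged 3.92 in RRas2-deficient samples and 3.81 in WT. The channel subunit gene Cnga2 lay under the limit, at 3.37 in deficient samples and 3.28 in WT. The receptor transport genes Rtp1 and Rtp2 averaged 5.34 and 3.64 in deficient samples and 5.38 and 3.64 in WT. Adcy3, the adenylyl cyclase of odorant signalling, was not analysed here. The genes of lowest p were Lhx2, a homeodomain factor of receptor choice (0.24 ± 0.13), its partner Ldb1 (0.17 ± 0.13), Ebf4 (0.12 ± 0.10), Omp (-0.13 ± 0.12), Gnal (0.12 ± 0.11) and Ric8b, a chaperone of the olfactory G protein (-0.06 ± 0.08). Genes of heterochromatin and the nuclear envelope were also on the list. Cbx5, which encodes heterochromatin protein HP1 alpha, averaged 8.17 in deficient samples and 8.33 in WT, and Lbr, the lamin B receptor gene, which mature olfactory neurons are known to lack, 9.32 in deficient samples and 9.22 in WT. Both followed the array sets, and Lbr read between 8.45 and 8.53 on narrower arrays but 9.58 to 10.1 on wider arrays.

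Other families of restricted expression were read in the same way. The vomeronasal receptors, which detect pheromones, had 24 of 173 Vmn1r genes (13.9%) and 9 of 108 Vmn2r genes (8.33%) above the limit. The trace amine receptors (Taar) had 1 of 15 and the bitter taste receptors (Tas2r) 2 of 34. Keratin-associated proteins of hair (Krtap) had 17 of 50 and beta-defensins (Defb), antimicrobial peptides of epithelia, 16 of 42. Over the 69 tested genes of these 6 families the median genotype difference was -0.02, and 0 had an unadjusted limma p under 0.05. On the narrower arrays 61 of the 69 (88.4%) had the higher mean, with a median difference of 0.19, beside 84.4% and 0.20 for the olfactory receptor genes. In these families too every wider array was above every narrower one for 0 genes, and the reverse held for 13.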

How the data were processed

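RNA of sorted germinal centre B cells was hybridised to 1 array per sample, and the authors deposited log2 intensities per transcript cluster, 25349 per array. The submitters' processing notes name RMA and oligo without versions. Genome build and probe annotation are not given in the sources used here.

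Genes were named from the platform annotation (22225 probes with 1 symbol, 616 with several, 2508 with none here) and placed by gene ID in a RefSeq table of GRCm38.p6 (21400 of 21515 genes found, 0 olfactory receptor symbols changed). None of that table's coordinates is given. Promoter coordinates are those of the RefSeq promoter table. Of several probes the brightest was kept. The limit of 3.48 left 16128 genes and removed 5387. The test was limma's (version 3.58.1, under R 4.3.3, lmFit, then eBayes), two-sided, on RRas2-deficient minus WT, with Benjamini-Hochberg adjustment and a threshold of 0.05, and unadjusted and adjusted p-values are limma's. Array sets come from the largest step between sorted interquartile ranges. Genes were named by rule: the 12 brightest with neighbours, 5 on each side of the limit, 8 of lowest p in each direction, 10 nearest to Rras2, 5 of largest SD, olfactory machinery and 6 other families.

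The members, lists and alternatives were chosen with earlier results of these data known. Alternatives were filters, mean over probes, normalization, variance model, array weights (statmod 1.5.0), replicate number, array set, a plain equal-variance test and leaving out each array. The comparison of array sets under other scalings and without WT replicate 1 was added after seeing the data. The fit was tested on simulated data. No set test was run.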

Additional observations from a re-analysis of the deposited data

Results flagged for a closer look

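In 3 of the 43 named olfactory receptor genes a WT array lay far from the other 3, by a criterion that chance meets in about 1 of 20 groups. Olfr988 read 6.58 on WT replicate 1 and 3.90 to 4.24 on the other WT arrays. Without that array its difference was 0.19 in place of -0.43. Olfr1359 read 3.29 on WT replicate 1 and 3.83 to 3.87 on the others, with a difference of 0.11 without that array and 0.25 with it. Olfr917 read 4.23 on WT replicate 2 and 3.53 to 3.64 on the others. None of the 3 passed the test of genotype.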

How the results depend on the processing

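Under the 20 alternatives 0 olfactory receptor genes passed an adjusted p of 0.05. The count at an unadjusted p under 0.05 was 5 as reported. It was 15 with the array set as a block (8.06%, against 10.1% of all tested genes). It was 33 with array weights, 13 with the interquartile range as covariate and 24 on the wider arrays alone. It was 3 by the plain equal-variance test, 1 of 47 genes with the limit at the median of all genes and 27 of 1081 with no filter. It was 3 to 7 when 1 array was left out. Apart from the block for array set, the share of all tested genes under each alternative is not given. These counts are therefore not read as a result about the receptors. The median genotype difference of the 186 genes, -0.03, ran from -0.09 to 0.05 when 1 array was left out and from -0.09 to 0.06 otherwise, always within 1 SD of the members' median over the WT arrays (0.18). The gap between the medians on chromosome 7 and elsewhere, -0.05, was -0.07 on the narrower arrays alone, -0.04 after quantile normalization, -0.03 with the interquartile range as covariate, -0.02 with array weights, 0.00 with no filter and 0.06 with the limit at the median. It was -0.06 to -0.01 when 1 array was left out, with -0.01 without RRas2-deficient replicate 2 or WT replicate 3 and -0.03 without WT replicate 1 or 4. With the replicate block the unadjusted count was 8, the gap -0.03 and the median difference -0.07. The deviations of same-numbered arrays correlated at -0.59, 0.78 and 0.66 over tested genes for replicates 1, 2 and 3. The same-numbered WT array was the best match for replicates 2 and 3 but not for replicate 1. Both replicates 2 are narrower arrays and both replicates 3 are wider, so a pairing by number cannot be told apart from the array sets. Of 836 values of single named genes under alternatives, 58 values in 20 genes had the other sign, 26 of them with an array left out, and 16 moved by over 1 SD within genotype. Among the 16 genes named for low p, 1 value had the other sign. Olfr884 turned to -0.07 on the narrower arrays alone, where 1 array is from deficient cells. The cause of these shifts was not tested. The smallest difference that 3 and 4 arrays could show in these genes was not determined.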
